A study of Homo sapiens with 6 samples.

Results

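A set of 8 genes that start or carry out programmed cell death were examined in BT-549 cells, an established triple-negative breast cancer (TNBC) line, with and without silencing of PBRM1, a chromatin-targeting subunit of the PBAF remodeling complex. The genes were chosen by symbol: the death ligand TNFSF10, the death receptors FAS and TNFRSF10B, the caspases CASP1, CASP4 and CASP8, the XIAP antagonist XAF1 and the necroptosis effector MLKL. All 8 of 8 symbols were found among the 37887 rows of the count table, and all 8 were among the 15450 genes that passed the filter on low counts. The RNA-seq data were 3 control libraries (shCTL) and 3 libraries of PBRM1-silenced cells (shPBRM1), made from poly(A) RNA of 1 cell line. By title the control cells carry a control shRNA. By treatment label they received vehicle (0.1% DMSO), whereas the shPBRM1 cells received 500 ng/ml doxycycline (DOX), which switches on a tet-PBRM1 shRNA. Whether the control cells carried a control shRNA or the uninduced PBRM1 shRNA vector is not settled by these labels. The groups therefore differ in DOX by the treatment labels and in vector by the titles, and effects of DOX, of the vector and of silencing cannot be told apart. One PBRM1 shRNA vector in 1 line was profiled, with no rescue among these libraries.

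As background, TNFSF10 encodes TRAIL, a ligand that clusters the receptor TNFRSF10B on the target cell, and FAS is the receptor for the related ligand FASLG. Clustered receptors recruit the adaptor FADD and CASP8, whose activation is held back by CFLAR, and active CASP8 cleaves the executioner caspases and BID. CASP1 and CASP4 are inflammatory caspases that cleave GSDMD, which then forms pores in the membrane. XAF1 antagonizes XIAP, an inhibitor of caspases, and MLKL is the protein that ruptures the membrane once RIPK3 has phosphorylated it. Several of these genes are known as IFN-stimulated genes (ISG), which carry the IFN-stimulated response element (ISRE) or the gamma-activated sequence (GAS) in their promoters.

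To show where such elements lie, the RefSeq promoter windows (GRCh38.p14, 250 bases before to 50 bases after each start site) were read for the 6 genes that had one, which gave 11 windows. No window was listed for CASP1 and none was used for TNFRSF10B. The windows were searched on both strands for the core of an ISRE, which is GAAA, any 2 bases and GAAA again, and for TTCNNNGAA, the GAS consensus. Positions count the start base as 0. TNFSF10 is shown because it holds the ISRE core, CASP8 because its first window holds both motifs, and XAF1 because neither was in its 2 windows, of which the first is printed, although its level fell strongly. Capitals mark the matches, and the strand printed is that of the gene.
TNFSF10 (chr3:172523381-172523680, minus strand): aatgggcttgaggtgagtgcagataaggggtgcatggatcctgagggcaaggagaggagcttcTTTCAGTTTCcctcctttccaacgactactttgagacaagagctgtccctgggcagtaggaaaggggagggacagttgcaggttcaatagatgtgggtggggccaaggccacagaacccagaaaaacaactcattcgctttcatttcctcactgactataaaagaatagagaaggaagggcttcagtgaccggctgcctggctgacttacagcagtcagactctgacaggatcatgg
CASP8 (chr2:201233213-201233512, plus strand): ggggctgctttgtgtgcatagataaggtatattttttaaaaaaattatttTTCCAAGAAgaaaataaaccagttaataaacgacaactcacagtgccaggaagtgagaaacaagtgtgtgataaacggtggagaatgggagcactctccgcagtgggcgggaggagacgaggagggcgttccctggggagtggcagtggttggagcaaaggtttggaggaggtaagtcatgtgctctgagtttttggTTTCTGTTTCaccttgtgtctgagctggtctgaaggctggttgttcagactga
XAF1 (chr17:6755197-6755496, plus strand): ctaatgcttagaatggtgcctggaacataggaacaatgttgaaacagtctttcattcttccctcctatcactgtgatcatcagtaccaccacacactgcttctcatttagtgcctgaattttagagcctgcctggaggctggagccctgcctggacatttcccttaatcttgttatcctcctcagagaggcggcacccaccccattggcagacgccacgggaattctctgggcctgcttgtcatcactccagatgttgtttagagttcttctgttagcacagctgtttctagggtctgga
In TNFSF10 the ISRE core lay on the opposite strand, from -187 to -178. The core in CASP8 also lay on the opposite strand, from -3 to 6, across the start site. The GAS match of CASP8 ran from -200 to -192 and reads as a match on both strands. The remaining windows of CASP8 and those of FAS, CASP4, XAF1 and MLKL had neither set of letters. Of 35116 windows of this length in the table, 3.57% held the ISRE core and 7.66% held the GAS letters. Only these exact letters and spacings were searched, so near matches within a window, those of XAF1 included, were not counted. A match describes the letters alone, and its absence from these windows says nothing about binding elsewhere.

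The targeted gene was read first. PBRM1 fell from 158 ± 2.30 to 41.9 ± 1.22 CPM, the read count scaled to library size with TMM factors (SD, n = 3). Total counts lay between 36429395 and 65096297 per library, and a floor of 3 counts equals 0.0471 CPM in the deepest and 0.0804 CPM in the shallowest of them. Of the receptors that define TNBC by their absence, ESR1 had at most 2 counts and PGR at most 12 counts in any library, whereas ERBB2 was present at 51.3 ± 1.10 CPM in shCTL and 50.02 ± 0.431 CPM in shPBRM1 cells (SD, n = 3). Of 7 leukocyte markers, CD3E, CD2 and MS4A1 had 0 counts throughout. The sum of the 7 markers ranged from 1.57 to 1.75 CPM in shCTL and from 1.15 to 1.46 CPM in shPBRM1 libraries. PTPRC, which encodes CD45, fell (counts of 26, 40 and 44 against 12, 4 and 6), whereas CD14, a monocyte marker, rose (9, 23 and 14 against 36, 29 and 44) and CSF1R did not pass the test. The markers of cell state moved as well. The epithelial marker CDH1 fell from 5.002 ± 0.363 to 1.51 ± 0.313 CPM (SD, n = 3; log2 fold change -1.73, edgeR adjusted p = 9.58e-10), and EPCAM had at most 8 counts in any library. The sum of both ranged from 4.67 to 5.37 CPM in shCTL and from 1.27 to 1.97 CPM in shPBRM1 libraries. Of 4 mesenchymal markers, FN1 and ZEB1 fell (log2 fold changes of -1.33 and -0.55) and CD44 and VIM rose (0.47 and 0.31), and their sum ranged from 2891 to 2967 CPM in shCTL and from 3229.7 to 3289 CPM in shPBRM1 libraries. The part of the leukocyte, epithelial and mesenchymal markers in the results on the 8 genes was not tested. In bulk RNA, fewer cells that express a gene and less RNA per cell cannot be told apart.

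Silencing of PBRM1 was accompanied by lower levels of all 8 genes. CASP1, TNFSF10 and MLKL were left at a few percent of the control level, XAF1, CASP4 and FAS at 13.2%, 20.7% and 25.4%, and CASP8 and TNFRSF10B at 52.4% and 64.9%. In edgeR's quasi-likelihood test, fitted to 15450 genes with Benjamini-Hochberg adjustment, 8 of 8 genes were lower at an adjusted p under 0.05, where 33.2% of all tested genes were lower and 64.7% changed in either direction. With the fold change over 2 that the study also required, 6 of 8 were lower, where 9.68% of all tested genes were. The normalized values of the groups did not overlap for any of the 8 genes, as for 35.0% of all tested genes in this direction. Their log2 fold changes had a median of -2.59, beside -0.0080 over all tested genes. These genes were chosen with results of these data known, so the counts describe them and are not evidence about cell death genes in general.

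**Figure D1:**
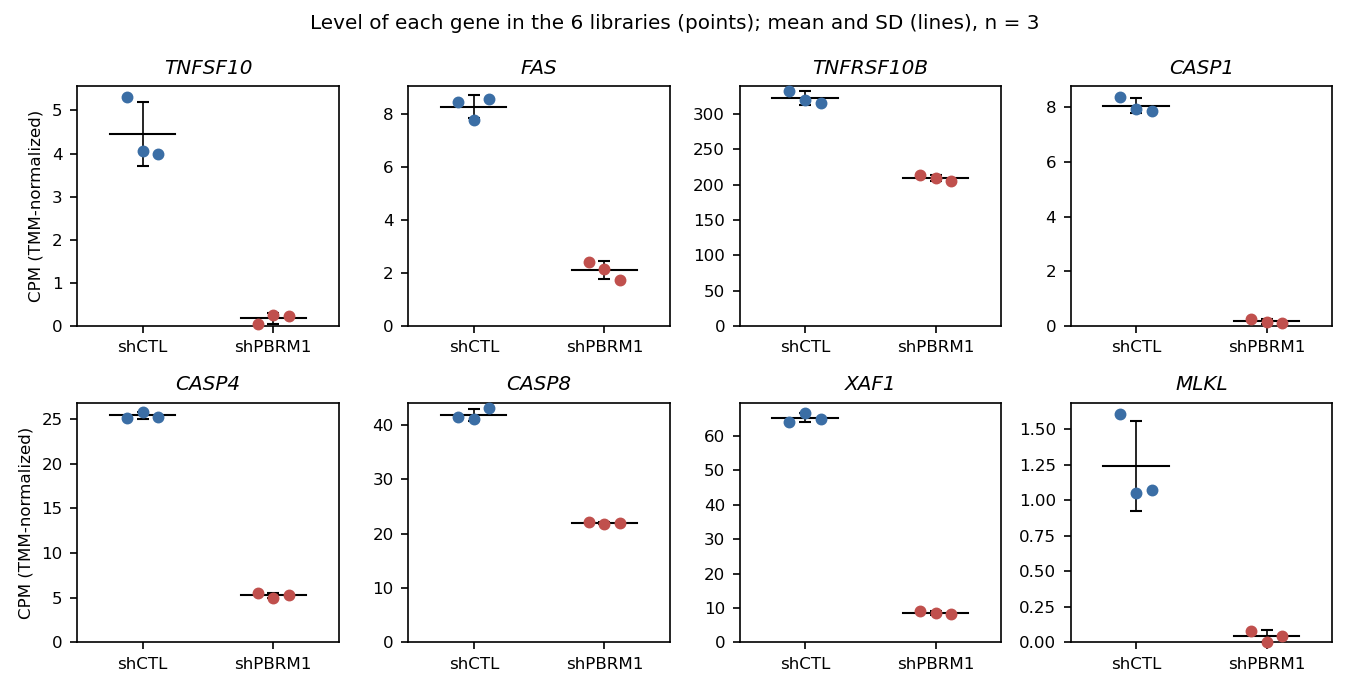
Level of each of the 8 genes in CPM (linear axes from 0) in the 3 shCTL and 3 shPBRM1 libraries, with a point for each library, a horizontal line for the mean and bars for the SD. In every panel the 3 shPBRM1 points lie below the 3 shCTL points, with TNFRSF10B and CASP8 keeping 64.9% and 52.4% of the control mean and CASP1 2.13%.

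TNFSF10, the ligand, lies on chromosome 3 from 172505508 to 172523507 (GENCODE v29, GRCh38). It had 198, 197 and 201 counts in shCTL replicates 1, 2 and 3 and 2, 10 and 15 counts in shPBRM1 replicates 1, 2 and 3. The shPBRM1 libraries were low throughout, and replicate 1, at 0.0333 CPM, was under the floor of detection, whereas replicates 2 and 3 were at 0.257 and 0.235 CPM. TNFSF10 fell from 4.45 ± 0.743 to 0.175 ± 0.123 CPM (SD, n = 3), with a log2 change of -4.71 (SE 0.67; edgeR adjusted p = 1.60e-12). The summed counts left 3.80% of the control level, with an exact 95% interval of 2.48% to 5.58% that covers counting error only. With shPBRM1 replicate 1 or any other library left out, the log2 fold change stayed between -5.14 and -4.16.

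FAS, one of the receptors, lies on chromosome 10 from 88990582 to 89015785. Control libraries held 315, 377 and 432 FAS counts, and silenced libraries held 145, 83 and 111. FAS fell from 8.25 ± 0.436 to 2.10 ± 0.338 CPM (SD, n = 3), with a log2 change of -1.98 (SE 0.14; edgeR adjusted p = 2.03e-12). The gap between the groups was several times the spread within either of them. Exons of FAS share 380 bases with exons of ACTA2 on the opposite strand, and the strand setting of the counting is not given in the sources used here. ACTA2 fell as well, from 302, 481 and 480 counts to 75, 44 and 68 counts.

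TNFRSF10B, the receptor for TRAIL on chromosome 8, was the most abundant of the 8 genes. Its counts were 12438, 15569 and 15883 in shCTL and 12808, 8165 and 13101 in shPBRM1 libraries. Scaled to library size, these were 333, 320.3 and 315 CPM against 213, 209.8 and 206 CPM. The decrease was the smallest of the 8, with a log2 fold change of -0.62 (SE 0.029; edgeR adjusted p = 1.38e-12), and it did not reach 2-fold. RHOBTB2, which shares 67 exonic bases with TNFRSF10B on the opposite strand, moved the other way, with a log2 fold change of 0.68.

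CASP1, the caspase of the canonical inflammasome, lies on chromosome 11 from 105025443 to 105035250. It had 312, 385 and 397 counts in shCTL and 16, 6 and 6 counts in shPBRM1 libraries. The lowest control library held many times more CASP1 reads than the highest silenced one. CASP1 fell from 8.05 ± 0.269 to 0.172 ± 0.0875 CPM (SD, n = 3), the largest decrease of the 8, with a log2 fold change of -5.53 (SE 0.35; edgeR adjusted p = 8.67e-17). The summed counts left 2.15% of the control level (exact 95% interval 1.42% to 3.12%, counting error only).

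CASP4, which senses intracellular lipopolysaccharide, lies in the same cluster as CASP1 on chromosome 11, from 104942866 to 104969436. It had 939, 1255 and 1273 counts in shCTL and 334, 193 and 337 counts in shPBRM1 libraries. CASP4 fell from 25.4 ± 0.359 to 5.27 ± 0.303 CPM (SD, n = 3), with a log2 change of -2.26 (SE 0.049; edgeR adjusted p = 1.11e-17). Within each library, CASP1 was 33.2%, 30.7% and 31.2% of CASP4 by counts in shCTL and 4.79%, 3.11% and 1.78% in shPBRM1. CASP1 was thus lower relative to CASP4 in each shPBRM1 library than in any shCTL library (log2 difference of the ratio -3.41, exact two-sided permutation test, p = 0.1, which is as low as a design of 3 against 3 can go).

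CASP8, the initiator caspase of the death receptors, lies on chromosome 2 from 201233443 to 201287711. Its counts were 1549, 1997 and 2173 in shCTL and 1329, 850 and 1396 in shPBRM1 libraries, or 41.5, 41.1 and 43.1 CPM against 22.1, 21.8 and 21.9 CPM. These levels were nearly alike within each group and well apart between them. CASP8 fell by a log2 fold change of -0.93 (SE 0.022; edgeR adjusted p = 2.83e-13), just short of a 2-fold decrease.

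XAF1, on chromosome 17 from 6755447 to 6775647, was the second most abundant of the 8 genes per length in control cells. It had 2393, 3248 and 3279 counts in shCTL and 557, 328 and 521 counts in shPBRM1 libraries. XAF1 fell from 65.3 ± 1.37 to 8.63 ± 0.578 CPM (SD, n = 3), with a log2 change of -2.92 (SE 0.058; edgeR adjusted p = 8.20e-22). No other of the 8 genes had a smaller adjusted p. The XAF1 exons share 2535 bases with PRAL on the opposite strand, for which no library counted more than 62 reads.

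MLKL, on chromosome 16 from 74671855 to 74700960, was the least abundant. It had 60, 51 and 54 counts in shCTL and 5, 0 and 3 counts in shPBRM1 libraries, so that a single shPBRM1 library was above the floor of 3 counts. MLKL fell by a log2 fold change of -4.59 (SE 0.52; edgeR adjusted p = 1.51e-08), the largest adjusted p of the 8. At this depth the size of the decrease was known less well than its direction. The summed counts left 4.06% of the control level, with an exact 95% interval of 1.73% to 8.20% (counting error only).

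Levels of different genes were compared per length, as CPM per kilobase of merged exons in GENCODE v29. In shCTL cells the order was TNFRSF10B (62.6 CPM per kilobase), XAF1 (9.87), CASP8 (5.78), CASP4 (3.50), CASP1 (2.18), FAS (1.94), TNFSF10 (1.28) and MLKL (0.218), and the 3 libraries of neighbors in this order did not overlap. In shPBRM1 cells the order was TNFRSF10B (40.6 CPM per kilobase), CASP8 (3.03), XAF1 (1.30), CASP4 (0.726), FAS (0.493), TNFSF10 (0.0504), CASP1 (0.0464) and MLKL (0.0076). Here TNFSF10 and CASP1 overlapped between libraries and were not separable. XAF1 was thus above CASP8 in each shCTL library and below it in each shPBRM1 library, and CASP1 went from above FAS to below it. The order of CASP1 and FAS in shCTL cells rests on the exon lengths used. Before division by length, their shCTL libraries overlapped (7.87 to 8.36 CPM for CASP1, 7.76 to 8.57 CPM for FAS).

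Ratios of 2 genes within a library depend on no scaling between libraries, and 8 such ratios were compared. XAF1 was 67.8%, 73.5% and 71.3% of XIAP by raw counts in shCTL and 11.5%, 10.7% and 10.3% in shPBRM1 libraries. XIAP itself, the inhibitor that XAF1 antagonizes, had a log2 fold change of -0.21 (edgeR adjusted p = 1.06e-05). TNFSF10 was 1.59%, 1.27% and 1.27% of TNFRSF10B in shCTL and 0.0156%, 0.122% and 0.114% in shPBRM1 libraries, so that ligand reads fell relative to receptor reads.

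The initiator CASP8 and its brake CFLAR fell side by side. Their ratio by counts was 98.7%, 99.9% and 109% in shCTL and 112%, 99.3% and 98.4% in shPBRM1 libraries. The log2 difference of this ratio was 0.0071, with SDs of 0.081 and 0.10 within the groups (exact two-sided permutation test, p = 0.9). These 3 libraries a group do not show that the ratio was the same. With one library left out in turn, the difference lay between -0.053 and 0.054. CFLAR had 1570, 1998 and 1987 counts in shCTL and 1187, 856 and 1418 counts in shPBRM1 libraries, a log2 fold change of -0.94 (edgeR adjusted p = 1.60e-12).

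Relative to GSDMD, their common substrate, both inflammatory caspases fell. CASP1 was 61.9%, 56.6% and 64.6% of GSDMD in shCTL and 3.41%, 2.10% and 1.29% in shPBRM1 libraries. CASP4 was 186%, 185% and 207% of GSDMD in shCTL and 71.2%, 67.5% and 72.3% in shPBRM1 libraries, so that reads of this caspase went from more than those of its substrate to fewer. MLKL was 2.36%, 1.64% and 1.64% of RIPK1, a kinase of the same pathway, in shCTL and 0.168%, 0% and 0.0999% in shPBRM1 libraries. FAS was between 2.42% and 2.72% of TNFRSF10B in shCTL and between 0.847% and 1.13% in shPBRM1 libraries. In each of these ratios other than CASP8 to CFLAR, the groups did not overlap and the ratio was lower in 3 of 3 same-numbered pairs. Each of them had p = 0.1 in the exact two-sided permutation test, or 0.114 after Benjamini-Hochberg adjustment over the 8 ratios.

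**Figure D2:**
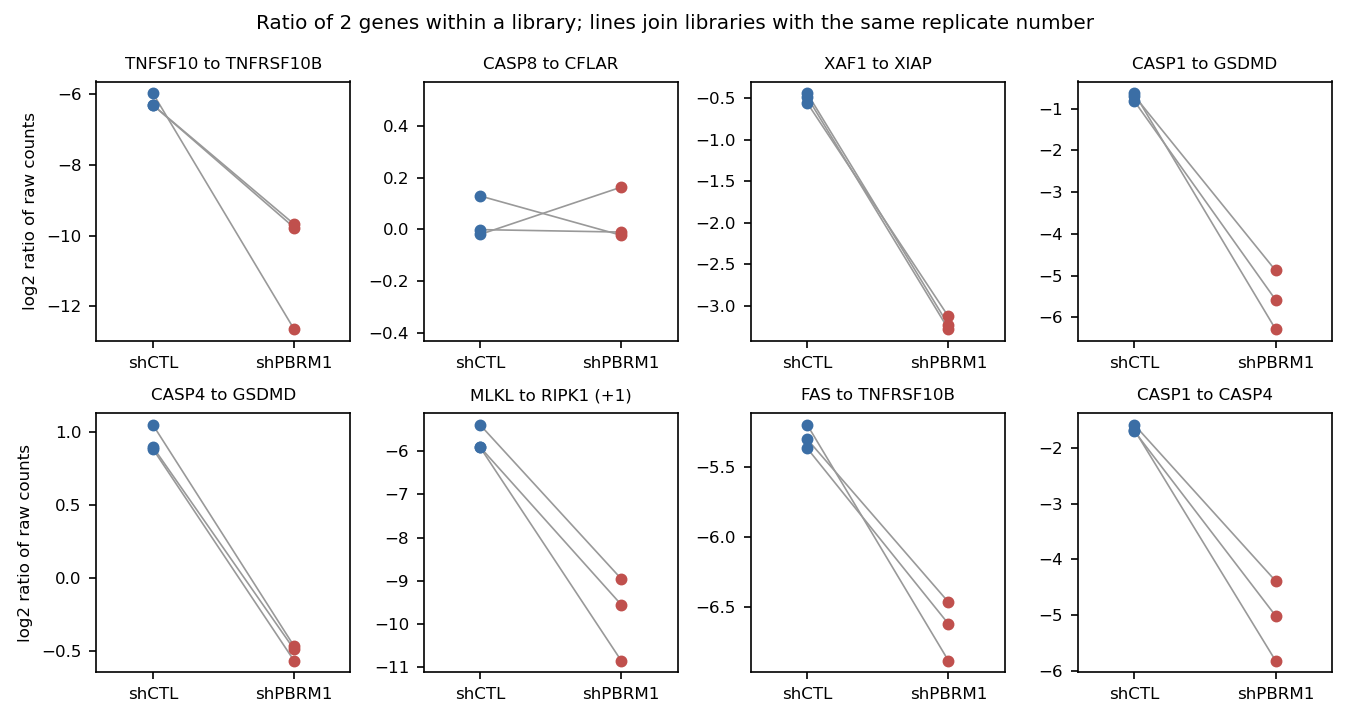
Log2 ratio of the raw counts of 2 genes in each library, by group, with lines joining libraries of the same replicate number. For MLKL to RIPK1, 1 was added to each count, because MLKL had 0 counts in shPBRM1 replicate 2. The groups are apart in each panel but CASP8 to CFLAR, where the 6 points lie between -0.023 and 0.16.

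The 8 genes were then set beside 79 other genes of the same pathways, in 8 lists that leave the 8 genes out. Of these, 58 were tested, 12 were lower and 2 were higher by more than 2-fold at an adjusted p under 0.05, where 9.68% and 2.87% of all tested genes were. Without the fold change minimum, 29 were lower, 13 were higher and 16 did not pass, where 33.2% of all tested genes were lower and 31.5% were higher. Over the 58 genes, the middle log2 fold change was -0.095. The shares called lower were above the background, but the middle of the lists was near that of all genes. The lists were chosen with results of these data known. Their counts therefore describe them and are not evidence about these pathways in general. Of the 14 genes past 2-fold, TNFSF12, BCL2, HRK and BIRC5 were among those within 0.1 of the threshold on the log2 scale. The count of 2 higher genes went to 1 when shCTL replicate 3 or shPBRM1 replicate 3 was left out.

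Among 5 death ligands, FASLG, TNF and LTA were too low to be tested, and both ligands tested fell. TNFSF15, a ligand of the receptor TNFRSF25, had 1006, 1301 and 1330 counts in shCTL and 295, 151 and 326 counts in shPBRM1 libraries, a log2 fold change of -2.50 (edgeR adjusted p = 1.82e-17). TNFSF12, which encodes TWEAK, had a log2 fold change of -1.03. FASLG was counted 0, 6 and 0 times in shCTL and 0 times in each shPBRM1 library, so that the ligand of FAS was at or near the floor in both groups.

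Of 9 other death and decoy receptors, 7 were tested. At an adjusted p under 0.05, 1 was lower (TNFRSF12A, log2 fold change -0.10) and 3 were higher, of which 1 passed 2-fold. The shares over all tested genes were 33.2% lower, 31.5% higher and 2.87% higher past 2-fold. TNFRSF10D, a decoy receptor for TRAIL that lacks a working death domain, had 70, 74 and 110 counts in shCTL and 739, 411 and 769 counts in shPBRM1 libraries. It rose from 1.86 to 11.6 CPM, a log2 fold change of 2.65 (SE 0.16; edgeR adjusted p = 5.71e-15). TNFRSF10A, the other signaling receptor for TRAIL, had 143, 195 and 188 counts in shCTL and 281, 145 and 223 counts in shPBRM1 libraries (log2 fold change 0.045, adjusted p = 0.780). TNFRSF11B, the soluble decoy osteoprotegerin, rose by a log2 fold change of 0.90, named after its values were seen. By counts, TNFRSF10D was between 0.475% and 0.693% of TNFRSF10B in shCTL and between 5.03% and 5.87% in shPBRM1 libraries.

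In the list of receptor complex adaptors and modifiers, 5 of 7 genes were lower, none by more than 2-fold, and none was higher. Over all tested genes, 33.2% were lower and 31.5% were higher. CFLAR, described above, and CYLD, a deubiquitinase of this complex with a log2 fold change of -0.90, fell most. RIPK1 had a log2 fold change of -0.45 (edgeR adjusted p = 1.44e-09). The adaptor FADD, between CASP8 and its receptors, had 170, 224 and 204 counts in shCTL and 280, 159 and 305 counts in shPBRM1 libraries (log2 fold change 0.046, adjusted p = 0.748), with the groups overlapping.

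Of 9 remaining caspases, 6 were tested. CASP6, an effector caspase, was slightly higher, with a log2 fold change of 0.32 (edgeR adjusted p = 0.00253). CASP14, a caspase of epidermal differentiation, had 67, 74 and 94 counts in shCTL and 30, 8 and 18 counts in shPBRM1 libraries, a log2 fold change of -2.33. CASP10, the closest relative of CASP8, had at most 2 counts in any library and was not tested.

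In the inflammasome and pyroptosis list, 9 of 12 tested genes were lower and 1 was higher, and 5 were lower by more than 2-fold. The shares over all tested genes were 33.2%, 31.5% and 9.68%, in this order. CARD16, a CARD-only relative of CASP1 that binds it, had 35, 58 and 39 counts in shCTL and 0, 0 and 6 counts in shPBRM1 libraries. GSDMC, a gasdermin, had 147, 175 and 219 counts in shCTL and 14 counts in each shPBRM1 library, a log2 fold change of -3.92. MEFV and NLRP1, both inflammasome sensors, had log2 fold changes of -2.97 and -2.53, from means of 0.403 and 1.65 CPM in shCTL cells. GSDMD, the pore-forming substrate, fell less, from 13.2 to 7.49 CPM (log2 fold change -0.82, edgeR adjusted p = 9.13e-09). The inflammasome adaptor PYCARD had no more than 3 counts in any library. CARD16 resembles CASP1 in sequence, so reads of the pair may have been split or dropped by the counting.

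For the IAPs and their antagonists, the necroptosis genes and the BCL2 family, 2, 1 and 7 of the 7, 1 and 16 genes tested were lower. In the same order, 1, 0 and 6 were higher. Beside these counts, 33.2% of all tested genes were lower and 31.5% were higher. BIRC5 (survivin), which is also a mitotic gene, rose from 58.0 to 118 CPM (log2 fold change 1.02, edgeR adjusted p = 3.02e-16), the one IAP gene past 2-fold. RIPK3, the kinase that activates MLKL, was not counted in any shCTL library, and shPBRM1 libraries held 1, 0 and 8 counts. ZBP1, a sensor upstream of RIPK3, had 4, 14 and 10 counts in shCTL and none in any shPBRM1 library. It was at least 3.41-fold lower against a floor of 3 counts per library and was not in the test.

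In the BCL2 family, PMAIP1, which encodes the proapoptotic protein NOXA, fell from 36.1 to 11.98 CPM (log2 fold change -1.59, edgeR adjusted p = 3.34e-16). BCL2, an inhibitor of apoptosis, fell from 25.9 to 12.9 CPM. BCL2L1, a further inhibitor, and APAF1, the scaffold of the apoptosome, rose by log2 fold changes of 0.45 and 0.83, both named after their values were seen. BID, the link from CASP8 to mitochondria, had 1389, 1845 and 1928 counts in shCTL and 2400, 1421 and 2618 counts in shPBRM1 libraries (log2 fold change 0.055, adjusted p = 0.365).

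**Figure D3:**
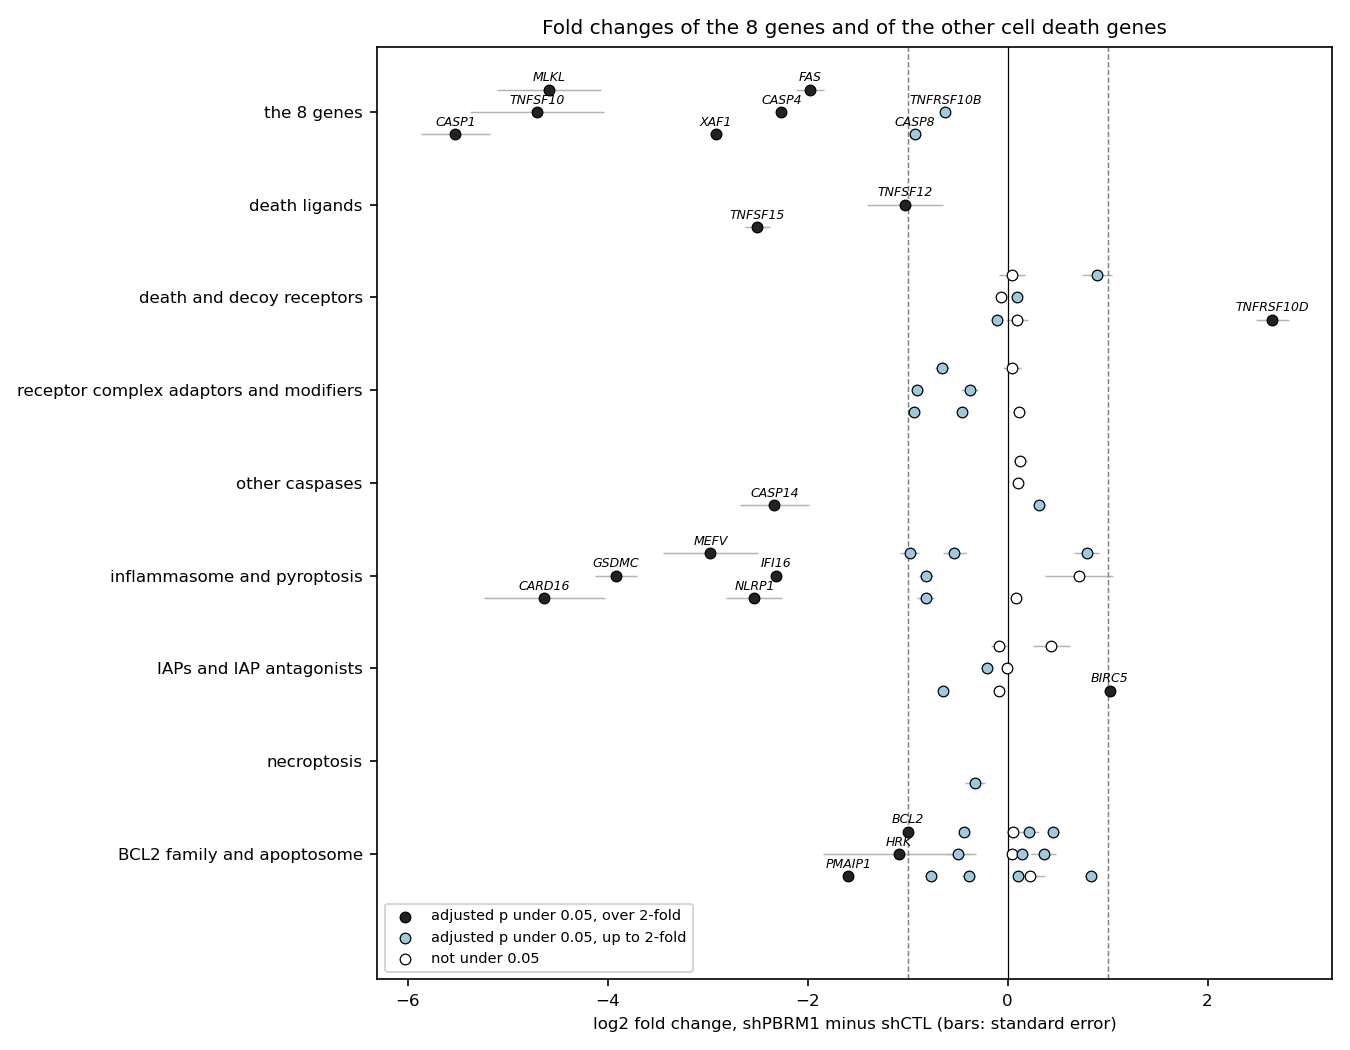
Log2 fold change of shPBRM1 minus shCTL for tested genes (points, with bars for the standard error), by list. Dashed lines mark a 2-fold change, and the fill gives the test result. The 8 genes all lie left of 0, between -5.53 and -0.62, whereas the other lists except the ligands, adaptors and necroptosis genes hold points that passed on both sides.

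The genes beside each of the 8 on its chromosome were read next. They were listed by position, and those named here were picked after their values were seen. CASP4, CASP1 and CARD16 were the tested genes of the inflammatory caspase cluster on chromosome 11, and all 3 fell. Over all tested genes, 33.2% were lower at an adjusted p under 0.05. CASP5, between CASP4 and CASP1, had no more than 2 counts in any library. On chromosome 2, CFLAR, CASP10 and CASP8 are consecutive, with log2 fold changes of -0.94 and -0.93 for the outer pair, whereas the flanking genes NDUFB3 and TRAK2 had 0.63 and -0.11. The 4 receptors for TRAIL on chromosome 8 are also consecutive, yet TNFRSF10B fell, TNFRSF10D rose and TNFRSF10A did not pass the test.

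XAF1 was followed by FBXO39 and TEKT1, which also fell. FBXO39 had 122, 125 and 153 counts in shCTL and 24, 10 and 30 counts in shPBRM1 libraries, a log2 fold change of -2.91 (edgeR adjusted p = 9.49e-11), close to that of XAF1. TEKT1 had 16, 19 and 25 counts in shCTL and 1, 1 and 2 counts in shPBRM1 libraries, leaving 5.59% (exact 95% interval 1.47% to 15.1%, counting error only). The next gene, ALOX12, did not pass the test (log2 fold change -0.39, adjusted p = 0.0787). On the other side of XAF1, MED31 was higher (log2 fold change 0.27) and C17orf100 lower (-0.47). SLC13A5, also on that side, did not pass the test (0.29). Around FAS, 6 neighbors were tested and all were lower at an adjusted p under 0.05, where 33.2% of all tested genes were. ANKRD22 and CH25H had 0 counts in each shPBRM1 library, and the other 4 ranged from LIPA, with a log2 fold change of -0.93, to IFIT2, an ISG, with -5.64. MLKL and TNFSF10, in contrast, stood among genes that moved little or rose: the tested neighbors of MLKL lay between -0.27 and 0.26, and those of TNFSF10 between 0.24 and 1.35.

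**Figure D4:**
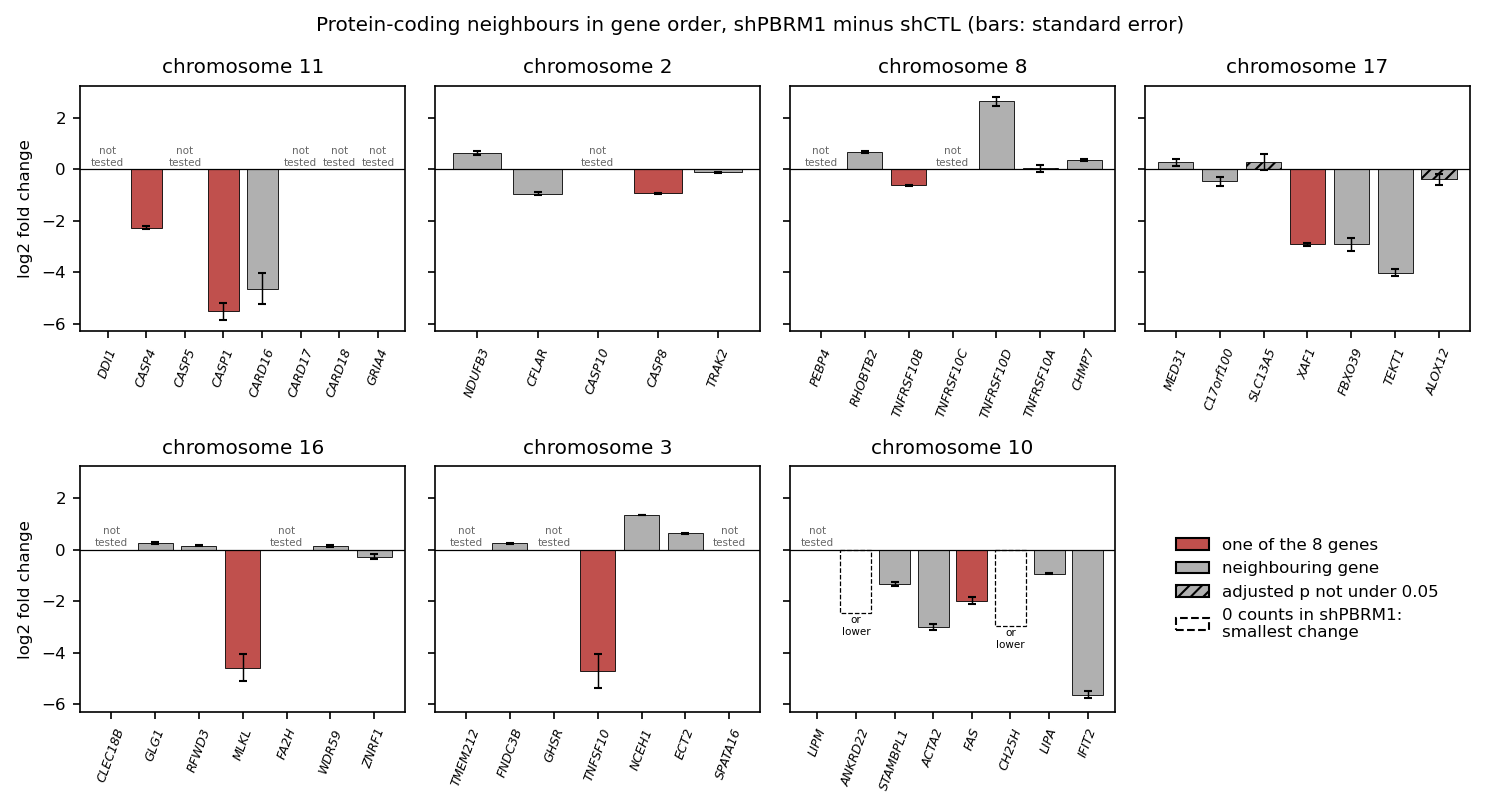
Log2 fold change of shPBRM1 minus shCTL for the protein-coding genes beside each of the 8 genes, in order along the chromosome (error bars are SE; hatched where the adjusted p was not under 0.05). Dashed outlines mark ANKRD22 and CH25H, at 0 counts in shPBRM1, drawn at the smallest change that a floor of 3 counts allows. The tested neighbors of TNFSF10 rose, and those of MLKL lie between -0.27 and 0.26. FAS, XAF1, CASP1 and CASP8 have neighbors that also fell.

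Finally, the tested genes with at least 50 counts on average whose profiles over the 6 libraries were nearest to each of the 8 were listed, by the root mean square difference of log2 CPM centered on shCTL, over 12506 genes. Among the nearest to CASP1 were PARP10 (difference 0.31) and GBP1 (0.32), to CASP4 LRATD2 (0.039) and IFI16 (0.058), and to XAF1 PLXNA2 (0.042) and MYLK (0.069). For TNFSF10 they were S100A8 (0.22) and IGSF9 (0.36), and for MLKL DCN (0.33) and ETV7 (0.40). FAS was nearest to SPRY3 (0.069) and RPS10P7 (0.083), TNFRSF10B to CC2D1B (0.023) and LAMA5 (0.025), and CASP8 to PHLDA1 (0.020) and C9orf64 (0.021). With 2 groups of 3, this measure mostly reflects the size of the fold change.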

How the data were processed

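RNA-seq of BT-549 cells was analyzed in 2 groups of 3 libraries. The deposited values are raw, unnormalized counts for each gene symbol, made by the authors. The processing notes of the submitters name CASAVA 1.8.2, STAR 2.7.9a, featureCounts, DESeq2 1.24.0 and the genome build GRCh38.p7. The annotation and the strand setting of the counting are not given in the sources used here. Sample titles gave the group and the replicate number. The control columns of the table carry no word for the control and were taken as the 3 that do not name shPBRM1. Nothing states that the libraries came from separate experiments beyond culture in triplicate, so p-values measure the spread between these libraries. Libraries of a group differed by more than sampling noise (chi-square over its degrees of freedom, 4.92 to 24.9).

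The test was the quasi-likelihood F-test of edgeR 4.0.16 under R 4.3.3, after filterByExpr and TMM scaling, with Benjamini-Hochberg adjustment over 15450 genes. This is the edgeR adjusted p of the report. Genes at an adjusted p under 0.05 are written as lower or higher, and those past a fold change of 2 are counted separately, as in the study. Standard errors (SE) are those of log2 CPM between replicates, with a prior count of 2. Rows with dates in place of symbols (14) were kept and not named. Gene positions and merged exon lengths come from GENCODE v29 (GRCh38). The tests were also run on simulated counts that had the same dispersion for every gene. Changes were placed only in genes with higher counts, so this check does not cover genes near the floor.

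Replicate numbers in the titles may pair the libraries. Across 5622 genes, same-numbered libraries deviated together from their group means (correlations across genes of 0.734, 0.593 and 0.419, where genes are no independent replicates). Libraries of different number had correlations from -0.671 to 0.464. The highest of these, for shCTL replicate 2 with shPBRM1 replicate 3, exceeded that of the replicate 3 pair, so the pairing is not settled. The replicate block changed no call among the 8 genes. Other alternatives were DESeq2 1.42.0, RLE factors, library size only, other filters on low counts, glmTreat against a 2-fold change and leaving out each library.

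The 8 genes and the lists were chosen with earlier results of these data known. Named genes are the 8, a set of partner genes (XIAP, CFLAR, FADD, RIPK1, RIPK3, GSDMD, TNFRSF10A, FASLG, CASP10, CARD16 and BID), in each list up to 4 genes with the largest change past both thresholds, and the 2 genes nearest in profile to each of the 8. Other genes, neighbors on the chromosome among them, were named after their values were seen. Some genes of the lists are counted in the totals and not reported here.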

Additional observations from a re-analysis of the deposited data

How the results depend on the processing

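All 8 genes stayed lower at an adjusted p under 0.05 under each alternative that tested them for any change, and 6 of 8 passed 2-fold in each, except that 5 did when genes needed a mean of at least 50 counts, since MLKL was then not tested. Against a 2-fold change itself (glmTreat), TNFRSF10B (log2 fold change -0.62) and CASP8 (-0.93) had an adjusted p of 1. With a mean of at least 50 counts, fewer genes were tested, and 941 of all genes were lower and 270 higher, with 7 of the other pathway genes lower. With no minimum for the fold change, 5137 of all genes were lower and 4863 higher, as were 29 and 13 of the other pathway genes. Without scaling factors beyond library size, which shifted the median of all genes to -0.056, 1 pathway gene was higher in place of 2, and leaving out a library gave 1 to 3. DESeq2 and the fit with no filter on low counts also called ZBP1 and NLRP3 lower.

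With the replicate block (libraries paired by number), the log2 fold changes were -4.71 for TNFSF10, -1.99 for FAS, -0.62 for TNFRSF10B, -5.54 for CASP1, -2.26 for CASP4, -0.93 for CASP8, -2.92 for XAF1 and -4.66 for MLKL. The block changed no call among these genes, and the pathway counts were 12 lower and 2 higher with it. With MLKL at 5, 0 and 3 counts and TNFSF10 at 2, 10 and 15 counts in shPBRM1 libraries, depth limits the size of their decrease. With a library left out, MLKL lay between -5.28 and -4.19.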

Other observations

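Some pathway genes too low for the test varied widely between control libraries. NLRP3, an inflammasome sensor, had 2, 30 and 8 counts in shCTL replicates 1, 2 and 3 and 0, 2 and 0 counts in the shPBRM1 libraries. AIM2, a sensor of cytosolic DNA, had 0, 13 and 8 counts in shCTL and 4, 2 and 0 counts in shPBRM1 libraries, and the groups overlapped. TNF had 2, 0 and 2 counts in shCTL and 2, 4 and 12 counts in shPBRM1 libraries, also overlapping. Counts of FBXO39 stayed near the same share of XAF1 counts in both groups, at 5.10%, 3.85% and 4.67% in shCTL and 4.31%, 3.05% and 5.76% in shPBRM1 libraries. TEKT1, the next gene, was between 0.585% and 0.762% of XAF1 in shCTL and between 0.180% and 0.384% in shPBRM1 libraries.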
